A study of Mus musculus with 16 samples.

Results

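The comparison set 4TO7 cells carrying both miR-200 clusters (Clusters 1+2, repeats A and B) against 4TO7 cells infected with the pMSCV-hygro and pMSCV-puro vectors without insert (Hygro vec + Puro vec, repeats A and B). These 4 arrays were chosen by sample title from the 16 of the series. 4TO7 is a mouse mammary carcinoma line, and all groups were this line, kept as sublines in DMEM with serum and antibiotics. The other arrays used below as comparators were Cluster 2 against the hygro vector alone, and Cluster 1 against the puro vector, again with 2 arrays per group. Total RNA (175 ng) was labelled with Cy3 in the 4 arrays, and a reference RNA pooled from 11 mouse cell lines was labelled with Cy5. Repeat A of both groups lay on 1 slide and repeat B on another, per the slide identifiers in the files. The series design names the repeats biological replicates, but nothing at hand says whether each was infected separately. Were both repeats taken from a single infected population, the p-values would cover only the spread between its cultures.

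The miR-200 family is known for holding epithelial cells in the epithelial state. Its members pair through their seed with mRNAs of the repressors ZEB1 and ZEB2, which in turn silence E-cadherin, other junction genes and the miR-200 genes themselves. The family is encoded in separate genomic clusters, and RefSeq (GRCm38.p6) places miR-200b, miR-200a and miR-429 on chromosome 4 (chr4:156053905-156055750, minus strand) and miR-200c and miR-141 on chromosome 6 (chr6:124717914-124718390, minus strand). The labels do not say which of these is Cluster 1 and which Cluster 2. The mature sequences are shown because cells with both clusters receive both seeds of the family; capitals mark the seed, bases 2 to 8 from the 5′ end.
miR-200b-3p: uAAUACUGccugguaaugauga
miR-200c-3p: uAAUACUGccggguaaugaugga
miR-429-3p: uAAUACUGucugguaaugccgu
miR-200a-3p: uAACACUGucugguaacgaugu
miR-141-3p: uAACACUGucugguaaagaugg
The first 3 share the seed AAUACUG and the other 2 share AACACUG, and the seeds differ at base 4 of the miRNA alone. Each genomic cluster holds miRNAs of both seeds. The array did not measure the mature miRNAs.

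The values below are log2 ratios of sample over reference RNA, and differences between groups are log2 fold changes with the standard error (SE) and adjusted p of limma. A gene was called at an adjusted p under 0.05. Of 18869 genes tested, 4692 (24.9%) were called, 2294 higher (12.2%) and 2398 lower (12.7%). Counts given below for gene lists are to be read beside these shares, and some lie near them. The lists were chosen with earlier results of these data known, so a count above these shares is a description and not a test. Calls with at least a 2-fold change numbered 267 higher (1.42%) and 207 lower (1.1%). The median change over all genes tested was 0.01. The within-slide differences correlated at 0.839 between slides, across genes, which are not independent replicates. All 4509 called genes measured on both slides had the same direction on both. The calls used these same 4 arrays, so that shared direction largely follows from the call and is no separate support. Of all 17976 genes with all 4 values, 29.5% were higher without overlap between the 2 groups and 28.3% were lower without overlap. A lack of overlap by itself is therefore common here. Arrays of slide 2 were dimmer than those of slide 1: 22433 and 23308 spots lay well above background there against 27266 and 30056, and this held for both groups.

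**Figure D1:**
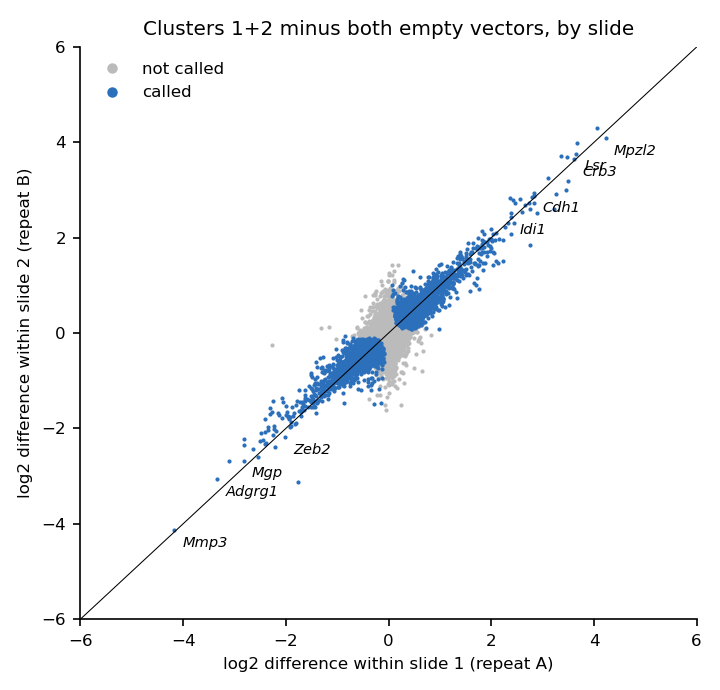
Log2 difference between Clusters 1+2 and both empty vectors within slide 1 (x axis) and within slide 2 (y axis), 1 point per gene, with called genes in blue and the line of equality in black. Called genes lie in the lower left and upper right, and Mmp3 (-4.18 and -4.14) and Mpzl2 (4.23 and 4.09) are at the ends.

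E-cadherin mRNA rose, with part of the adherens junction genes tested. Cdh1, which encodes E-cadherin, measured 1.39 and 1.08 in the control arrays and 4.21 and 3.96 in Clusters 1+2. Both arrays with the clusters lay above both controls (probe at chr8:105268557-105268616, mm7), a rise of 2.86 (SE 0.126, adjusted p = 8.05e-09), 7.24-fold. Of 15 adherens junction genes tested, 9 rose and none fell, with a median of 0.45. The LIM protein gene Ajuba rose by 1.46 (SE 0.0946, adjusted p = 2.09e-07), the nectin Nectin2 by 0.80 (adjusted p = 0.00034; 0.51 with probes averaged) and the actin linker Afdn by 0.57 (adjusted p = 5.85e-05). The catenins that bind E-cadherin's tail, Ctnna1 (0.10), Ctnnb1 (-0.09) and Ctnnd1 (0.08), were not called.

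Tight junction genes gave some of the largest changes. Mpzl2, an adhesion protein of epithelia, measured -2.36 and -2.48 in the controls and 1.87 and 1.61 in Clusters 1+2, a rise of 4.16 (SE 0.113, adjusted p = 2.06e-10). Its probes did not move equally, and their average gave 2.54. Lsr, which organises the junctions where cells meet at a corner, went from 0.01 and -0.34 to 3.66 and 3.42, a rise of 3.71 (SE 0.121, adjusted p = 8.85e-10). The barrier protein gene Cldn4 went from 0.05 and -0.05 to 2.65 and 2.48, a rise of 2.56 (SE 0.21, adjusted p = 3.37e-06). Of 15 tight junction genes tested, 11 rose and none fell, with a median of 0.67. Cldn3 (1.89), Cldn12 (1.01) and Cldn7 (0.67) were among them. The occludin gene Ocln was not well above background on either control array and was at least 2.29-fold higher with the clusters (adjusted p = 8.99e-06). The call of Cldn7 ended when spots marked by the scanner software were kept.

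Desmosomes tie keratin filaments to the membrane, and 7 of 11 of their genes tested rose. Desmoplakin, Dsp, measured -0.37 and -0.57 in the controls, 1 of them well above background, and 2.74 and 2.68 in Clusters 1+2, a rise of 3.18 (SE 0.0968, adjusted p = 5.03e-10). Perp rose from -0.42 and -0.50 to 2.42 and 2.45, by 2.89 (SE 0.0695, adjusted p = 6.9e-11), and the plakophilin Pkp2 by 1.98 (SE 0.075, adjusted p = 2.91e-09). Of the others, 1, the periplakin gene Ppl, fell by 0.50 (adjusted p = 0.00139), a call that ended with the spread scaled between arrays and when marked spots were kept. Crb3, a membrane protein that sets the apical side of epithelial cells, went from -1.02 and -1.07, with 1 control array well above background, to 2.59 and 2.58. That rise of 3.63 (SE 0.085, adjusted p = 6.9e-11) is 12.4-fold, and was 5.53 with the software's processed signals. Of 15 genes of apical polarity and trafficking, 7 rose, 8 were not called and none fell, with a median of 0.20. Pard6b rose by 1.77 and Llgl2 by 1.15, and 3 of the 7 calls held in every alternative. Patj rose by 1.57, but its call ended with the software's processed signals (0.68, adjusted p = 0.31).

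Laminin-332 and keratins rose only in some members. Lamb3 went from -1.14 and -1.07, with 1 control array well above background, to 2.12 and 1.84, a rise of 3.09 (SE 0.11, adjusted p = 1.56e-09), or 4.96 with the processed signals. Lama3, which encodes another of its chains, was at 0.05 and not called. Of 10 hemidesmosome genes, 4 rose and 3 fell: Col17a1 (-0.97), Cd151 (-0.45) and Itga6 (-0.42), whose call ended in 4 alternatives, the average over probes among them (-0.34, adjusted p = 0.0521). The simple-epithelium keratins Krt18 (1.56, SE 0.0821, adjusted p = 3.28e-08) and Krt8 (0.85, adjusted p = 7.02e-05) rose, with Krt18 going from -0.95 and -1.09 to 0.56 and 0.53. Of 11 keratins, 6 rose and 1 fell; Krt23 was not well above background on either array with the clusters and was at least 3.18-fold lower (adjusted p = 5.57e-06). Krt7 rose by 2.11 (adjusted p = 1.94e-07) on its brightest probe, which lacked 1 control array and had 1 saturated spot. Its other probe gave 4.07, so the size of the Krt7 rise is uncertain.

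The factors that set epithelial transcription and splicing rose in 6 of 10 cases, with none lower. Grhl2, a transcription factor of epithelial genes, measured -0.50 and -0.28 in the controls and 0.87 and 0.80 with the clusters, a rise of 1.23 (SE 0.0866, adjusted p = 4.19e-07). Esrp2, which splices epithelial isoforms, rose by 1.94 (SE 0.137, adjusted p = 9.73e-07), with a value on 1 of the 2 arrays with the clusters. Its relative Esrp1 was not well above background in the controls and was at least 1.9-fold higher (adjusted p = 1.86e-07). Ovol2 (0.23) and Ehf (-0.18) were not called. Among epithelial surface proteins and proteases, 6 of 10 rose and none fell: Epcam, an adhesion protein, went from -3.50 and -3.02 to -0.04 and -0.01, a rise of 3.23 (SE 0.166, adjusted p = 2.84e-08). The protease inhibitor gene Serpinb5 rose by 3.54 (SE 0.196, adjusted p = 5.36e-08), with 1 of the 2 control arrays well above background, and the membrane protease gene St14 by 2.30 (SE 0.2, adjusted p = 2.8e-06). With probes averaged, St14 rose by 1.45; with the processed signals, Grhl2 rose by 2.13 and Esrp2 by 3.46.

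**Figure D2:**
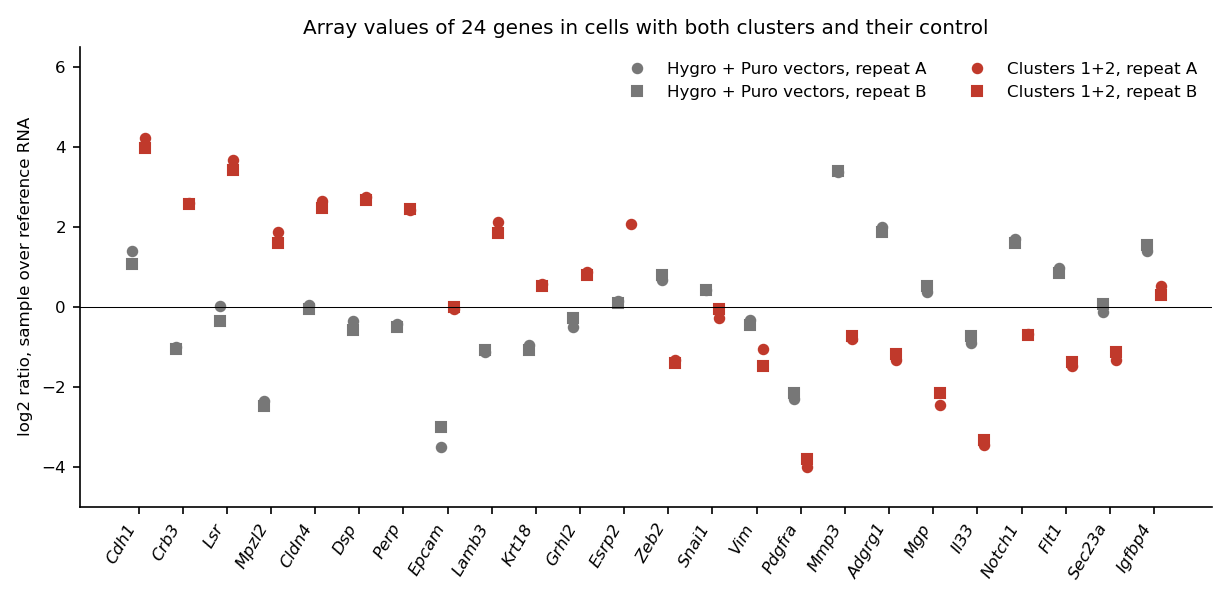
Log2 ratio of sample over reference RNA (y axis) for 24 genes, with each array as a point: grey for both empty vectors, red for Clusters 1+2, circles for repeat A and squares for repeat B. A point is missing where the spot was marked by the scanner software, as for Esrp2. Red lies above grey from Cdh1 to Esrp2 and below it from Zeb2 to Igfbp4.

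On the other side of the switch, Zeb2 fell and Zeb1 mRNA gave no called difference. Zeb2, a repressor of Cdh1, measured 0.68 and 0.79 in the controls and -1.34 and -1.39 in Clusters 1+2, a fall of 2.10 on the log2 scale (SE 0.074, adjusted p = 1.56e-09). The probe lies at chr2:44995859-44995918 (mm7), and the other 3 probes of the gene gave -2.27, -1.18 and -0.38. Zeb1 measured -2.75 and -2.42 in the controls and -2.69 and -2.47 with the clusters on its only probe, a difference of 0.00 (adjusted p = 0.996). Snai1 fell by 0.58 (SE 0.0892, adjusted p = 0.000348), the E protein genes Tcf4 and Tcf3 by 0.78 and 0.65, and Twist1 by 0.72 (adjusted p = 0.0357). The Twist1 call rested on single arrays: the difference was -0.29 (adjusted p = 0.371) without control repeat B, -0.60 (adjusted p = 0.187) without Clusters 1+2 repeat A, -0.84 (adjusted p = 0.06) without repeat B, and -1.14 without control repeat A. Of 12 repressor genes, 5 fell and 1, Foxc1, rose by 0.57 (adjusted p = 0.000317), although that call ended with the spread scaled between arrays and when marked spots were kept.

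Genes that mark mesenchymal cells were for the most part not called. Of 17 tested, 4 fell and 1 rose, with a median of -0.01, where 12.7% of all genes tested were called lower and 12.2% higher. Vim, an intermediate filament gene of mesenchyme, went from -0.32 and -0.46 to -1.05 and -1.48, a fall of 0.87 (SE 0.136, adjusted p = 0.00055). Pdgfra, a growth factor receptor, went from -2.30 and -2.15 to -4.01 and -3.81, a fall of 1.69 (SE 0.0941, adjusted p = 5.58e-08); with its probes averaged the fall was 0.83. Fn1 (-0.21, adjusted p = 0.156), Acta2 (-0.02) and Axl (0.04) were not called. S100a4, counted among the 4, was measured on 1 array a group with saturated spots, and its call ended with the processed signals (adjusted p = 0.071). Sparc fell by 0.66, a call that ended with the spread scaled between arrays (-0.43, adjusted p = 0.25). Cdh11, the 1 called higher, was at 0.42; the call ended with probes averaged (0.19, adjusted p = 0.558), without Clusters 1+2 repeat B (0.38, adjusted p = 0.0526), without control repeat B (0.36, adjusted p = 0.0618) and in 4 other alternatives. Collagen and matrix genes split evenly, with 6 of 25 higher and 6 lower. Mgp, an inhibitor of calcification, fell by 2.75 (SE 0.107, adjusted p = 3.26e-09) and Col6a3 by 2.25 (SE 0.164, adjusted p = 5.85e-07), while the matrix glycoprotein gene Thbs1 rose by 1.85 (SE 0.182, adjusted p = 8.74e-06), or by 1.20 with probes averaged.

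The largest fall of all named genes was Mmp3, a secreted protease that degrades matrix and can cleave E-cadherin. It measured 3.38 and 3.39 in the control arrays and -0.80 and -0.74 with the clusters, a fall of 4.16 (SE 0.0995, adjusted p = 6.9e-11), 17.8-fold. Mmp10 fell by 1.16 (adjusted p = 0.000205), with that call ended when marked spots were kept, and the inhibitor gene Timp2 by 0.61 (adjusted p = 0.000423). The protease gene Adamts1 rose by 1.14 (SE 0.0784, adjusted p = 3.51e-07), and the remaining 10 of 14 genes tested, Mmp2, Mmp9 and Mmp14 among them, were not called. Adgrg1, an adhesion G protein-coupled receptor gene, fell by 3.20 (SE 0.101, adjusted p = 1.93e-09), from 2.01 and 1.88 to -1.33 and -1.18, and the urea transporter gene Slc14a1 by 2.90 (SE 0.127, adjusted p = 7.78e-09). Among 13 integrins and their ligands, 4 fell and 2 rose: Vcam1 fell by 1.84 (SE 0.109, adjusted p = 9.96e-08) and Itgb3 by 1.36, while Itgb5 rose by 1.01 and Itgb1 by 0.64. With probes averaged, Itgb3 fell by 0.87 and Itgb1 rose by 0.32. The shares over all genes tested, to set beside the counts in this paragraph, were 12.2% called higher and 12.7% lower.

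Of 43 genes reported as miR-200 targets in earlier work, 18 fell and 4 rose, and their median was -0.09. Beside this and the other counts in this paragraph stand 12.7% of all genes tested called lower and 12.2% higher. Notch1, a receptor of cell-to-cell signalling, went from 1.70 and 1.61 to -0.69 and -0.71, a fall of 2.35 (SE 0.0774, adjusted p = 8.87e-10), 5.1-fold. Flt1, a VEGF receptor, went from 0.96 and 0.85 to -1.48 and -1.39, a fall of 2.34 (SE 0.0679, adjusted p = 3.43e-10). The phosphatase gene Ppm1f fell by 1.02 (0.44 with probes averaged) and the actin-severing Cfl2 by 0.77. In the other direction the Notch ligand Jag1 rose from -0.08 and -0.10 to 1.78 and 1.70, by 1.83 (SE 0.0896, adjusted p = 1.81e-08), and Rnd3 by 0.83 (SE 0.108, adjusted p = 8.75e-05). Sec23a, a subunit of the COPII coat that carries secreted proteins out of the endoplasmic reticulum, went from -0.12 and 0.07 to -1.33 and -1.14, a fall of 1.20 (SE 0.145, adjusted p = 4.76e-05). Of 13 COPII genes, 2 fell and 1 rose: Sec24d fell by 0.41 (adjusted p = 0.0142) and Sec23b rose by 0.27 (adjusted p = 0.0347), and both calls ended in several alternatives, each, for example, without Clusters 1+2 repeat A (-0.36, adjusted p = 0.0998, and 0.22, adjusted p = 0.201) and without control repeat B (-0.34, adjusted p = 0.107, and 0.27, adjusted p = 0.114). The Sec23b call ended whichever of the 4 arrays was left out. Igfbp4, a secreted binder of insulin-like growth factors, fell by 1.07 (SE 0.113, adjusted p = 1.57e-05), and Tinagl1 by 0.37 (adjusted p = 0.00953), which was -0.23 (adjusted p = 0.121) without Clusters 1+2 repeat B and -0.35 (adjusted p = 0.0575) without control repeat B. Igfbp7 rose by 1.21 (SE 0.085, adjusted p = 4.19e-07); in all, 3 of 6 genes of this list fell and 1 rose.

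Sterol and fatty acid synthesis genes rose together, 28 of 31 tested with none lower and a median of 1.25; 25 of the 28 calls held in every alternative. Idi1, an isomerase of the mevalonate pathway, measured -0.65 and -0.70 in the controls and 1.73 and 1.73 in Clusters 1+2, a rise of 2.41 (SE 0.0987, adjusted p = 4.77e-09). The files place the Idi1 probe on another chromosome than the RefSeq gene, so a gene copy may share its signal. The HMG-CoA synthase gene Hmgcs1 rose by 1.89 (SE 0.0853, adjusted p = 9.19e-09) and Cyp51, a demethylase of cholesterol synthesis, by 1.79 (SE 0.0878, adjusted p = 1.81e-08). Every array with the clusters lay above both controls for these 3 genes. With probes averaged, Hmgcs1 rose by 1.12. Srebf1 (0.10) and Acaca (0.02) were among the 3 not called. Cluster 2 alone gave a median of 0.22 for the list with 8 members called higher, where 1.79% of all genes tested were called higher and 1.08% lower. Cluster 1 gave a median of 0.36 with 18 called higher, where 4.89% of all genes were called higher and 3.44% lower. With a second puro control, made for the CDH1 cells and measured on another slide than the Cluster 1 cells, in place of the first, the Cluster 1 median was 0.17, with 10 members called higher.

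**Figure D3:**
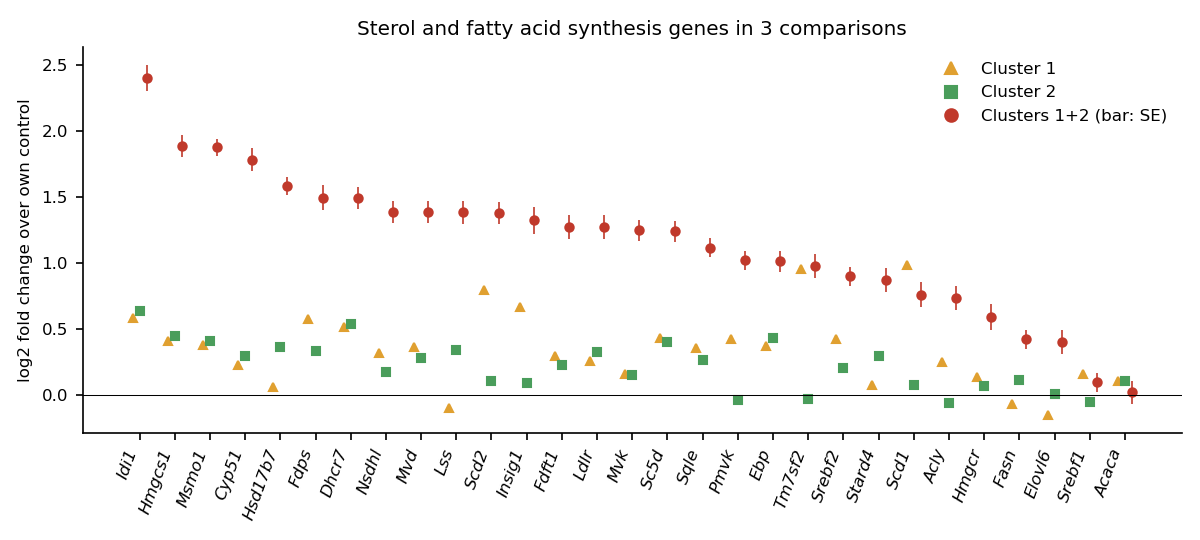
Log2 fold change over the matched control (y axis) for genes of sterol and fatty acid synthesis, sorted by the change in Clusters 1+2, with triangles for Cluster 1, squares for Cluster 2 and circles with SE bars for Clusters 1+2. The joint change lies above both single ones for Idi1 (2.41 against 0.58 and 0.64) and for Hmgcs1 (1.89 against 0.41 and 0.45).

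Signalling and secreted factors moved in both directions, where 12.2% of all genes tested were called higher and 12.7% lower. In the cytokine and chemokine list, 6 of 21 fell and 4 rose: Il33, an alarm cytokine, fell by 2.58 (SE 0.115, adjusted p = 8.82e-09), the protease gene Casp1, which matures interleukin precursors, by 2.54 (SE 0.0902, adjusted p = 1.56e-09), and Il11 by 1.84 (SE 0.0772, adjusted p = 5.84e-09), while Cxcl16 rose by 1.30, a call that ended when marked spots were kept. Of 23 TGF-beta and BMP genes, 8 fell and 5 rose; Id2, an inhibitor of helix-loop-helix factors, went from -0.97 and -0.90 to -3.22 and -3.03, a fall of 2.19 (SE 0.0936, adjusted p = 6.46e-09), and Inhba rose by 1.27. Of 19 immediate early genes, 9 fell and 5 rose: the MAP kinase phosphatase Dusp6 fell by 1.51 (SE 0.0724, adjusted p = 1.49e-08) and Jun by 0.81, while Jund rose by 1.57 and Myc by 0.75. Of 33 actin, contractility and YAP or SRF genes, 14 rose and 2 fell. Ccn2, a target of YAP, rose by 1.92 (SE 0.158, adjusted p = 1.82e-06) and Ankrd1 by 1.46 (SE 0.0658, adjusted p = 9.19e-09), whereas the genes of the coactivators, Wwtr1 and Yap1, were the ones that fell, by 1.49 (SE 0.0804, adjusted p = 3.99e-08) and 0.75 (adjusted p = 0.000157). The Yap1 call ended with the processed signals. In the ErbB list 5 of 13 rose and 3 fell; the adaptor gene Grb7 rose by 3.59 (SE 0.17, adjusted p = 1.35e-08), from -2.46 and -2.66 to 1.02 and 1.04, and Epgn by 1.51.

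**Figure D4:**
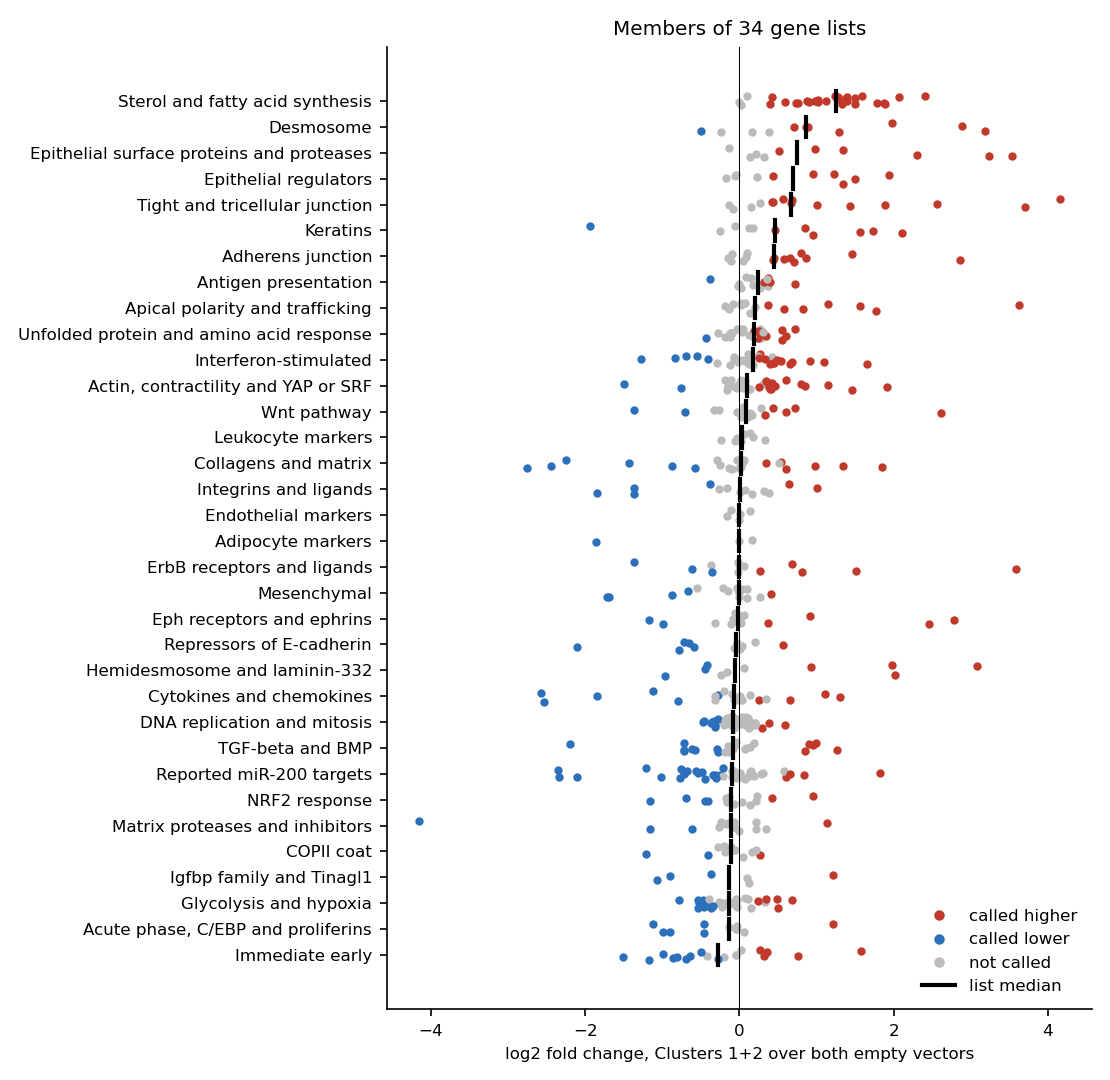
Log2 fold change of Clusters 1+2 over both empty vectors (x axis) for the tested members of 34 gene lists (y axis), sorted by list median (black bar), with called members red (higher) or blue (lower) and others grey. Sterol and fatty acid synthesis has the highest median (1.25) and the immediate early list the lowest (-0.28).

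Other genes among the 25 largest rises and 25 largest falls fell outside these lists, apart from Col9a1, which belongs to the collagen and matrix list. Kctd12b rose by 4.18 (SE 0.152, adjusted p = 1.93e-09), or by 2.48 with its probes averaged, the potassium channel gene Kcnk1 by 3.34, Macc1 by 2.91 and Hs3st1 by 2.69. On 10 of the 25 largest rises, 1 of the 2 control arrays was not well above background, so the exact size of those rises rests partly on dim control spots. Among the falls, 5031410I06Rik and Col9a1 were not well above background with the clusters and were at least 4.27-fold and at least 4.14-fold lower. Galnt15 fell by 2.52, Selenbp1 by 2.38, Phex by 2.29 and S100a8 by 2.10.

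The promoters of the risen genes were searched for the E-box CACCTG on either strand (CAGGTG on the other), the core that zinc fingers of ZEB and Snail proteins bind, in the 300 bases from 250 before to 50 after each RefSeq start (GRCm38.p6). Of 12221 tested genes with a promoter in the table, 21.9% held it. Among all genes called higher it was found in 24.8% (413 of 1664), near that share, and among all called lower in 18.2% (301 of 1654). It was found in 37.8% (71 of 188) of called genes at least 2-fold higher and in 18.9% (30 of 159) of those at least 2-fold lower. Among tested genes of the epithelial lists it was found in 60.7% (34 of 56), and 63.6% (21 of 33) of those called higher. Genes with several starts have more windows. With genes of a single promoter the first share was 18.4% and that of all genes called higher 20.4%. In the same way, the share of the genes at least 2-fold higher was 35.1%, and that of the epithelial lists 55.3%. These shares describe letters and are not a sign of binding. Of the 25 largest rises 15 had a promoter in the table, and 9 of the 15 held the motif, against 3 of 20 for the largest falls. The bases before the start are shown for the 3 of the largest rises with at least 2 matches there, with the matches in capitals: Crb3 (chr17:57061951-57062200, plus strand), Lsr (chr7:30973470-30973719, minus strand) and Epcam (chr17:87635729-87635978, plus strand).
Crb3: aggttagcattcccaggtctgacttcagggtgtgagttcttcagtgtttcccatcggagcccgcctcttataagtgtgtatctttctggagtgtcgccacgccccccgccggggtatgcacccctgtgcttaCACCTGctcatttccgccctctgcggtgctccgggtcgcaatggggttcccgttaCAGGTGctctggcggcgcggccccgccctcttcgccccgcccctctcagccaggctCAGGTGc
Lsr: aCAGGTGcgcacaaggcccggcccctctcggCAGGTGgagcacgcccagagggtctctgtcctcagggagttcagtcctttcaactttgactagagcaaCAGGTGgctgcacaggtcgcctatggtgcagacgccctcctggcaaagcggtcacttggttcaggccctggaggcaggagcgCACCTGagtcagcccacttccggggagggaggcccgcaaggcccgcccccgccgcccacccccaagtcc
Epcam: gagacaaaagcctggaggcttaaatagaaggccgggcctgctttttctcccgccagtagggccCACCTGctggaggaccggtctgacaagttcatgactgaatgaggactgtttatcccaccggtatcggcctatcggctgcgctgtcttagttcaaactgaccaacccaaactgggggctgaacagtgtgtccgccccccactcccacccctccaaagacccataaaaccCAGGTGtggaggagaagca
Crb3 held 3 matches before its start and 1 after it, Lsr 4 and Epcam 2. Adgrg1, among the largest falls, also held 2, in 1 of its promoters.

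The effect of both clusters was then set against that of each alone, each over its own control. Against Cluster 2, whose arrays shared the slides and the dye, the difference was called for 1190 genes (6.32%), 554 higher (2.94%) and 636 lower (3.38%), a split that median centring in place of loess turned to 304 and 2044. The genes named here were chosen for a large joint change or a large difference, so their values are a description. Epha4, an ephrin receptor gene, rose by 2.78 with both clusters and 0.41 with Cluster 2, a difference of 2.37 (SE 0.18, adjusted p = 1.21e-05). These values are from its brightest probe. Its other probe rose by only 0.39 with both clusters, and the average over probes by 1.58. The joint rise of Epha4 was not called by limma with the processed signals (1.07, adjusted p = 0.0601). The drug transporter gene Abcg2 rose by 2.37 against 0.16, a difference of 2.21 (adjusted p = 1.33e-05). Epha4 and Abcg2 were each well above background on only 1 Hygro vec + Puro vec array, so these sizes are uncertain. Mmp3 fell by 4.16 against 1.12 and Adgrg1 by 3.20 against 0.29. In the sterol list 26 of 31 genes were called higher with both clusters than with Cluster 2 and none lower. For Cdh1 the difference was 0.92 (adjusted p = 0.00779).

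Against Cluster 1, whose arrays lay on another slide with the dyes exchanged, 2959 genes (15.7%) differed, 1378 higher (7.31%) and 1581 lower (8.39%), or 670 and 1291 with median centring. Dye and slide cannot be told apart from the insert in this difference, although each effect was taken over a control on its own slide.

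Finally the joint effect was set against the sum of both single effects on the log2 scale. That sum holds the Cluster 1 effect, so here too dye and slide cannot be told apart from the insert. The difference was called for 735 genes (3.91%), 268 of them higher (1.42%) and 467 lower (2.48%). Median centring gave 94 higher and 1491 lower, and keeping marked spots left 70 calls in all. Crb3 rose by 3.63 where the sum of 1.94 and 0.12 was exceeded by 1.57 (SE 0.147, adjusted p = 0.000187). Dsp exceeded its sum by 1.51, Cldn4 by 1.87, Kcnk1 by 1.97, Epha4 by 2.05 and Abcg2 by 2.20. Crb3, Dsp, Kcnk1, Epha4 and Abcg2 were well above background on only 1 Hygro vec + Puro vec array. The size of their excess is therefore uncertain. The Epha4 value rests on its brightest probe, and its other probe rose far less with both clusters. Among falls the difference from the sum was -3.87 for Mgp, -2.97 for Adgrg1 and -2.07 for Slc14a1; with the second puro control it was -2.54, -2.79 and -3.26. Sterol genes exceeded the sum in 14 of 31 cases, or 20 with the second puro control, Cyp51 by 1.26 and Msmo1 by 1.08. Cdh1, in contrast, lay within -0.29 of its sum (adjusted p = 0.557), as did Mpzl2 (0.37, adjusted p = 0.361) and Epcam (0.17, adjusted p = 0.828). Lsr and Perp rose less than the sum, by differences of -1.13 and -1.01 (adjusted p = 0.00956 and 0.000643); with the second puro control these were -2.48 and -2.24. The Krt7 difference of -5.60 rests on the probe described above. Of the 735 genes, 376 were called again in the same direction with the second puro control. All 10 of the largest rises beyond the sum were called again, and 6 of the 10 largest falls; Selenbp1, Selenbp2, S100a8 and F5 were not.

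**Figure D5:**
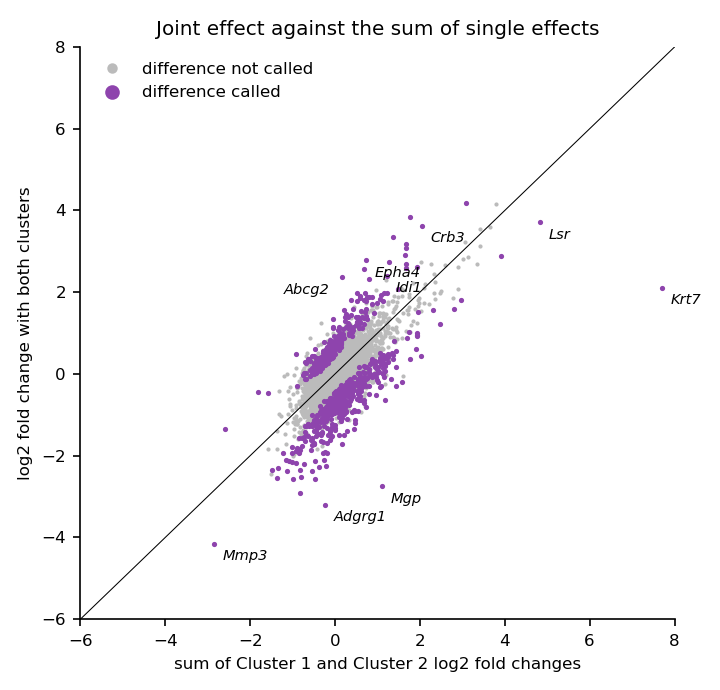
Log2 fold change with both clusters (y axis) against the sum of the Cluster 1 and Cluster 2 changes (x axis), 1 point per gene, with called differences in purple and the line of equality in black. Abcg2 (2.37) and Epha4 (2.78) lie above the line, Mgp (-2.75) and Adgrg1 (-3.20) far below it.

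The cell line was checked against its markers. Among epithelial markers, Cdh1, Epcam, Krt8, Krt18, Krt19, Krt14, Cldn4 and Cldn7 were well above background on both control arrays, and Krt7 on 1. Vim and Pdgfra, among mesenchymal markers, were so on both. The vector control cells thus carried some transcripts of both kinds. Other markers of either kind are not reported here. None of 8 leukocyte and 5 endothelial markers was called by limma. Of 3 adipocyte markers, Fabp4 fell by 1.86 (SE 0.123, adjusted p = 2.47e-07), while Adipoq (0.16) and Plin1 (-0.01) were not well above background with the clusters and were not called; what part such cells have in the result was not tested.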

How the data were processed

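RNA of the 16 arrays was measured on Agilent 2-colour arrays, with probe positions in build mm7, per the file headers. Spot intensity was deposited by the authors for both channels, as read by Feature Extraction 9.5.3.1, beside that software's processed intensity. The deposited files also hold its log10 ratio of the channels. The deposited series matrix holds a linear ratio, which equalled the processed signal of sample over reference (largest log10 difference 8.06e-08), with no further centring.

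Spots marked by the software were removed (335 to 1675 on the 4 arrays). Background was corrected by normexp (offset 50) and arrays by loess, with control spots at weight 0 (limma 3.58.1, R 4.3.3). Log2 ratios were averaged over spots of a probe. Probes were kept where the sample's own channel was well above background in every array of any group (26940 probes, 18901 genes, 18869 tested), and the brightest probe stood for a gene; 925 genes lacked a value on at least 1 of the 4 arrays. Probes were named through RefSeq by accession (23075), symbol (6582) or synonym (3077), with the file's name kept for 8440. A limma model with 8 group means over 16 arrays gave two-sided Benjamini-Hochberg adjusted p-values, and pooled the spread over all groups. The number of arrays limits the precision. A probe dim on all arrays of a group gives a lower bound, computed against the lowest signal well above background.

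Same-lettered repeats of the Cy3 groups shared a slide, per the file headers, and their deviations from group means correlated at 0.243 to 0.421, so they were treated as paired in an alternative. The rule named the 25 largest rises and falls measured on all 4 arrays without overlap and in the same direction on both slides, up to 8 called members of each list, 16 fixed genes, and the 10 largest of each difference in each direction. A few uncalled members were named after their values were seen. Members and lists were chosen with earlier results of these data known. Alternatives are given in the closing section. The second puro control was chosen after seeing the data. Target sites of the miRNAs were not analysed here. Some genes are not reported here.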

Additional observations from a re-analysis of the deposited data

Results flagged for a closer look

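In 11 named genes the joint effect and the Cluster 1 effect had opposite directions, both called, with the difference called by limma. All fell with both clusters and rose with Cluster 1. The joint effect minus the Cluster 1 effect was -4.28 for Mgp, -3.10 for Il33, -2.74 for Selenbp2, -2.03 for Itgb3, -1.71 for Gstm1, -1.55 for Lcn2, -1.46 for Cebpd, -1.41 for Egr2, -1.20 for Cxcl5, -1.17 for Egln3 and -0.90 for Nqo1. Dye and slide differ between the effects. The joint fall itself lost its call with the spread scaled between arrays for Cebpd, Gstm1, Lcn2 and Nqo1, and when marked spots were kept for Cxcl5, Lcn2 and Nqo1; Lcn2 also lost it with the processed signals (-0.75, adjusted p = 0.289), and Nqo1 with the sample channel alone. Nqo1 also lost it without Clusters 1+2 repeat A (-0.33, adjusted p = 0.0528) or control repeat B (-0.32, adjusted p = 0.0506). With the second puro control in place of the first, a setting added after seeing the data, Cluster 1 was called higher for 0 of the 11 and lower for 3 of them, and the difference was called for 10 of 11. For Mgp the Cluster 1 effect was 1.53 with the first control and 0.20 with the second, and the difference was -2.95 with the second.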

How the results depend on the processing

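The called genes numbered 4692 for the joint effect, 1190 for its difference from Cluster 2, 2959 from Cluster 1 and 735 from the sum. In that order, the processed signals gave 2702, 345, 1557 and 340; scaling the spread between arrays 1868, 122, 1117 and 211; the sample channel alone 2159, 317, 1469 and 329; and keeping marked spots 2630, 274, 993 and 70. An offset of 10 gave 580 from Cluster 2 and 453 from the sum. Median centring gave 2348, 1961 and 1585 for the 3 differences and moved the split of calls: 304 higher and 2044 lower against 554 and 636 from Cluster 2, 670 and 1291 against 1378 and 1581 from Cluster 1, and 94 and 1491 against 268 and 467 from the sum. The 8 Cy3 arrays alone gave 711 from Cluster 2, and the 4 arrays alone 3126 for the joint effect. Leaving out a replicate gave 3294 to 4151, 834 to 1167, 2079 to 2974 and 518 to 832. With slide as a replicate block the counts were 5055, 1440, 3332 and 937; it ended no call of a named gene and moved no other count by over 1.5 times. Of the 4692 calls, 1143 (24.4%) held in the same direction in every alternative, and of 245 named genes 162 stayed on the same side of the threshold in all; none reversed. The cause of these shifts was not tested. Where spots of a group were dim, the size of a change is uncertain. The processed signals gave larger rises for some genes, such as Crb3 (5.53 against 3.63 in the main run) and Esrp1 (4.83 against 1.35). They gave smaller ones for others, such as Epha4 (1.07 against 2.78) and Patj (0.68 against 1.57).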

Other observations

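Several lists not described above held called genes. Over all genes tested, 12.2% were called higher and 12.7% lower. Some counts below lie near those shares, such as 2 of 16 Eph genes and 2 of 18 Wnt genes called lower. Of 33 interferon-stimulated genes 13 rose and 5 fell, with Isg20 at 1.66 and Ifi203 at -1.28; Cluster 2 alone gave 10 called lower and 1 higher (1.08% and 1.79% of all genes). Cluster 1 gave 13 higher and 0 lower (4.89% and 3.44% of all genes), but 3 higher and 4 lower with the second puro control, Ifi203 (-0.74, adjusted p = 0.000215) among the lower. Of 15 antigen presentation genes 4 rose and 1 fell. Wnt10a, a ligand gene, rose by 2.62 (SE 0.101, adjusted p = 3.25e-09), and the Wnt effector gene Tcf7l2 fell by 1.37 (0.64 with probes averaged); 5 of 18 Wnt genes rose and 2 fell. Among 16 Eph receptors and ephrins 4 rose and 2 fell, with Epha1 at 2.45 and Efnb1 at -1.18. Calls that held in every alternative numbered 6 of 18 for the interferon-stimulated genes and 1 of 5 for antigen presentation. For the Wnt genes they numbered 3 of 7, and for the Eph list 4 of 6.

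Of 27 genes of the unfolded protein and amino acid response 9 rose and 1 fell, with Mthfd2 at 0.72 and Asns at 0.61. In the glycolysis and hypoxia list 10 of 29 fell and 5 rose, with Vegfa at -0.52. DNA replication and mitosis genes showed small changes, 9 of 41 lower and 3 higher with a median of -0.08, and 1 of these calls held in every alternative. Of 14 NRF2 genes 4 fell and 2 rose, with Gstm1 at -1.16 and Osgin1 at 0.96 (0.45 with probes averaged). In the acute phase, C/EBP and proliferin list 5 of 11 fell and 1, the complement gene C3, rose by 1.22 (0.72 with probes averaged). Only 1 of these 6 calls held in every alternative, and none of the falls did. Such calls numbered 4 of 10 for the unfolded protein list, 3 of 15 for glycolysis and hypoxia and 2 of 6 for NRF2.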
